A study of Schizosaccharomyces pombe with 4 samples.

Results

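Long introns inside coding sequence, in genes that carry only a few introns, were followed through nascent transcripts of the fission yeast Schizosaccharomyces pombe. The set held every annotated intron of at least 150 nt that lay within the coding sequence of a nuclear protein-coding gene with 1 to 4 introns. The genes gnd1, cpc2 and wos2 and those of ribosomal proteins (symbols beginning rps, rpl or rpp) were left out. This gave 488 introns in 474 genes, out of 5185 introns in 2443 intron-containing genes. The median length was 212 nt and the longest intron had 837 nt, whereas the 3396 shorter coding introns of genes with the same intron numbers had a median of 55 nt. The rule used position, length, intron number and gene name and no read count, although it was set with earlier results of these data known.

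Nascent RNA was isolated, stripped of polyadenylated and ribosomal RNA, ligated to an adaptor at its 3′ ends and sequenced as long cDNA reads on a Pacific Biosciences instrument, so that 1 read shows both where transcription had reached and which upstream introns were gone. Wild-type cells in exponential growth in complete medium (YES) at 30 °C gave 2 libraries, replicate 1 from strain L972 (h-) and replicate 2 from strain SP286 (h+), which carries a KanMx-marked wild-type copy of prp5 at that gene. The 37 °C wild type (L972, h-) and the prp2-1 strain (leu1.32, prp2-C387Y) gave 1 library each, after growth at 26 °C and a shift to 37 °C for 2 hours. All cultures began from single colonies, so the mutant data come from a single colony of the prp2-1 strain. The deposited alignments hold no bases, and the prp2 substitution could not be checked in them. The tests below compare libraries, since a condition with 1 library has no replicate check.

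In splicing, the U1 snRNP binds the 5′ splice site, U2AF binds the 3′ splice site region and the U2 snRNP pairs with the branch point, whose adenosine attacks the 5′ splice site in the first of the transesterification steps. The excised intron leaves as a lariat, which is debranched and degraded. prp2 encodes the large subunit of U2AF, and prp2-1 is used as a temperature-sensitive splicing allele. Most fission yeast introns are short enough to be recognised as a unit across the intron.

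The splice sites of the most-read long introns show what the spliceosome meets. For each intron the 5′ window starts 6 nt before the intron and the 3′ window ends 3 nt after it, both 5′ to 3′ on the gene's strand. Capitals mark the first 6 intron bases, the branch-point word where one was found, and the last 3 intron bases. The words searched on the sense strand were CTAAC and CTAAT, the first also in the form CTGAC and the second in the form CTGAT. The windows, from the RefSeq genome ASM294v3, are chrI:3384332-3384357 and chrI:3384705-3384747 (plus strand) for rad24, chrI:1253410-1253435 and chrI:1252805-1252847 (minus strand) for cut6, chrI:4415744-4415769 and chrI:4415965-4416007 (plus strand) for tbp1, chrIII:1207820-1207845 and chrIII:1208123-1208165 (plus strand) for nmd5.
rad24 5′: atgaagGTATGTgcttttataaggtt
rad24 3′: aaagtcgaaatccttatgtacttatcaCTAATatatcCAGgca
cut6 5′: ttctggGTATGTtatattaatcattt
cut6 3′: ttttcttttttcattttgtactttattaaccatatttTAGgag
tbp1 5′: cttagaGTAAGTcgtgcctctttgga
tbp1 3′: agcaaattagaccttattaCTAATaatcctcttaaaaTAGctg
nmd5 5′: aggcagGTAAGTgtgaattgtttgag
nmd5 3′: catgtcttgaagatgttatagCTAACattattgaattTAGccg

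The first of these, rad24, was the member with the most reads, cut6 was among those spliced most, and tbp1 and nmd5 had low shares in prp2-1. cut6 holds none of the 4 branch words in its last 60 nt, which says only that these letters are absent there. The next windows set introns with no spliced read against introns with the highest shares, among members with at least 10 scored reads. Reads were pooled over the 4 libraries, which read these introns unequally. They lie at chrIII:2089047-2089072 and chrIII:2089234-2089276 (plus strand) for sac3, chrIII:1417433-1417458 and chrIII:1417594-1417636 (plus strand) for lmb1, chrIII:1302906-1302931 and chrIII:1303095-1303137 (plus strand) for srk1, chrI:2643678-2643703 and chrI:2643820-2643862 (plus strand) for hcs1, chrI:4654858-4654883 and chrI:4655207-4655249 (plus strand) for ade2, chrI:4502784-4502809 and chrI:4502955-4502997 (plus strand) for ckb1.
sac3 5′: ttaaagGTTTGAttttttttttctta
sac3 3′: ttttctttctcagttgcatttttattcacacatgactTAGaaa
lmb1 5′: acttggGTAGGTagctaaatatcata
lmb1 3′: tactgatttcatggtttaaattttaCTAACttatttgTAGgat
srk1 5′: tttaaaGTATGTttgaattaccaaaa
srk1 3′: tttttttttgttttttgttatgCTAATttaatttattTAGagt
hcs1 5′: aatcagGTATGTtataaatgagtcgc
hcs1 3′: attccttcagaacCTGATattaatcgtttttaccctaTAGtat
ade2 5′: tgtcagGTATGTtacaaaagctttat
ade2 3′: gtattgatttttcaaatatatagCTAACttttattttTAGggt
ckb1 5′: aaaatgGTAAGCaattatgtttgtaa
ckb1 3′: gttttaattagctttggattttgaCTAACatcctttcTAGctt

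The first 3 of these introns had no spliced read. The 5′ sites of sac3 and lmb1 differ from GTAAGT and GTATGT, the sites most used in the set, and that of srk1 is GTATGT. Among the 3 introns with the highest shares, ckb1 also has another site, GTAAGC, and hcs1 and ade2 have GTATGT. The last 60 nt of the sac3 intron hold none of the 4 branch words. The sequence of the whole tbp1 intron 1, which gave the lowest prp2-1 share among the 10 most-read members, is shown with 6 nt of exon before it and 3 nt after (chrI:4415744-4416007, plus strand).
tbp1: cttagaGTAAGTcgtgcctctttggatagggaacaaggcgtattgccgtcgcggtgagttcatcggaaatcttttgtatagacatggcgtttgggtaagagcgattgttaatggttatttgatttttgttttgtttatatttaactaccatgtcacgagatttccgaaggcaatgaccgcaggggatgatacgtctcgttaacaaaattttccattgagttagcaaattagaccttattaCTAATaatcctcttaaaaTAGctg

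As a class, the long introns carried the 5′ site GTAAGT more often than the short ones, at 42.0% of introns against 26.5%, a difference of 15.5 points (95% interval 10.98 to 20.2, Newcombe). GTATGT was found in 22.5% and 20.2%, a difference of 2.34 points (-1.41 to 6.47). The 3′ end was TAG in 75.4% of long and 69.1% of short introns and AAG in 5.33% and 12.4%. A word of the 4 above lay on the sense strand in the last 60 nt of 84.6% of long and 76.0% of short introns, which in introns under 60 nt means the whole intron. The median distance from that word to the intron end was 15 nt in both classes. An in-frame stop codon was met inside 99.2% of long and 85.8% of short introns, which have less length to hold one. The first such stop lay at a median of 18 nt into the long introns. Of the long introns, 292 were the first intron of their gene (59.8%, against 52.7% of the short ones).

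The 4 libraries held 123756, 45318, 32176 and 33746 aligned reads, in the order 30 °C replicate 1, 30 °C replicate 2, 37 °C wild type and prp2-1, which is kept below. A read was scored at an intron if at least 10 nt of the read lay beyond each end of it. It counted as spliced if a gap ended within 5 nt of both splice sites, and as unspliced if it ran through. Scored reads were found at 462 of the 488 introns, at least 10 of them over the 4 libraries at 191, and 5487 in all. Reads of another form were 0.838% to 1.47% of the crossings per library. Intervals below cover counting error only, because the reads had passed through PCR and copies could not be told from molecules.

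Read length differed between libraries and between sequencing cells (the runs named in the read names), and in the 30 °C libraries the spliced share of long introns moved with it. The median span on the nuclear chromosomes was 251, 435, 902 and 770 nt. In 30 °C replicate 1 the share was 97.3% (36 of 37 scored reads) and 97.4% (38 of 39) in the cells numbered 2 and 4, whose reads at long introns had median aligned lengths of 272 and 280 nt. The other 4 cells of replicate 1, at 513 to 533 nt, gave 69.0% to 74.5%. In 30 °C replicate 2 cell 1 gave 44.4% of 808 reads at a median of 806.5 nt. Its cells 2 and 3 gave 73.6% of 121 reads at 458 nt and 66.5% of 197 reads at 419 nt. Aligned length leaves out removed introns, so it also falls as more reads are spliced. The median span of all nuclear reads was 134 nt in cells 2 and 4 of replicate 1 and 314 to 321 nt in its other cells. In cells 1, 2 and 3 of replicate 2 it was 725, 272 and 264 nt. The part of read length in the shares was not tested. The main comparisons were also made without cells 2 and 4 of replicate 1 and without cell 1 of replicate 2, with values given where they moved. No cell was common to the 30 °C libraries, whereas the 37 °C libraries shared all 6 of their cells.

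**Figure D1:**
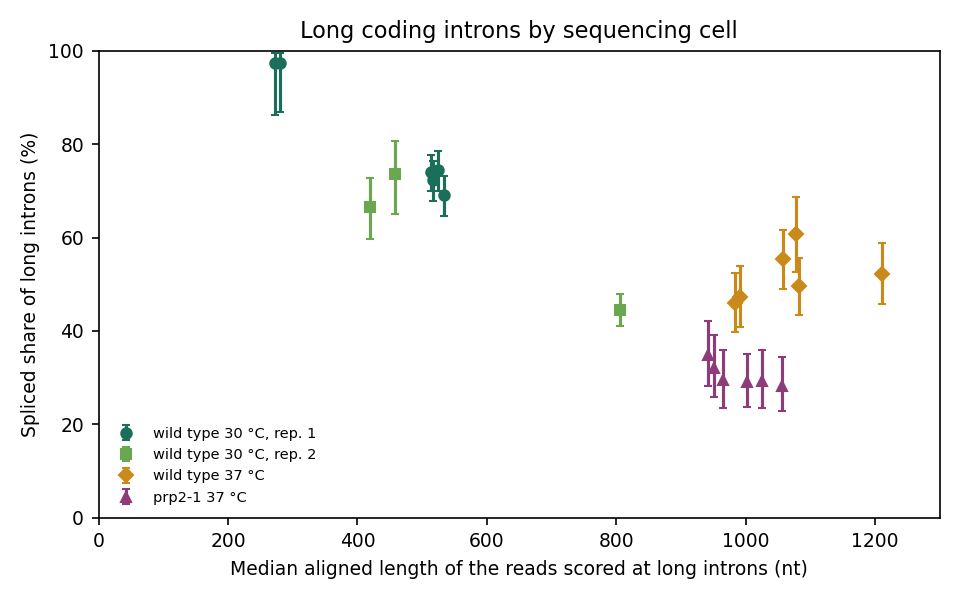
Spliced share of long coding introns in each sequencing cell (percent of scored reads, bars are 95% Wilson intervals) against the median aligned length of the reads scored there (nt). The 2 short-read cells of 30 °C replicate 1 lie above 97%, cell 1 of replicate 2 lies at 44.4%, and the 6 prp2-1 cells lie below the 6 cells of the 37 °C wild type.

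In wild-type cells at 30 °C most long introns were already gone from nascent RNA in replicate 1 and about as many were spliced as unspliced in replicate 2. The spliced share was 73.5% (1331 of 1811 reads, 95% Wilson interval 71.4 to 75.5) in replicate 1 and 51.4% (579 of 1126, 48.5 to 54.3) in replicate 2, with a mean of 62.5% ± 15.6 (SD, n = 2). It was 51.2% (667 of 1302, 48.5 to 53.9) in the 37 °C wild type and 30.3% (378 of 1248, 27.8 to 32.9) in prp2-1. The prp2-1 library was the lowest, and the intervals of replicate 2 and the 37 °C wild type overlapped.

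**Figure D2:**
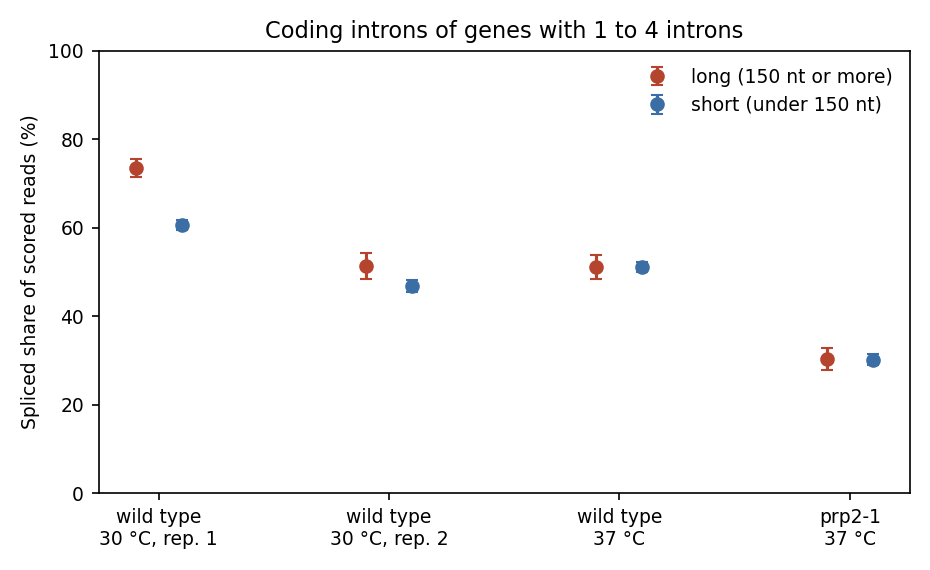
Spliced share (percent of scored reads) of long and short coding introns of genes with 1 to 4 introns in each library, with 95% Wilson intervals. Long introns lie above short ones in both 30 °C libraries, and the classes overlap in both 37 °C libraries.

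The prp2-1 library was compared with the 37 °C wild type to ask how these introns fare when U2AF is impaired. The share was 20.9 points lower in prp2-1 (interval of the difference -24.6 to -17.2, Newcombe). Within introns the odds of being spliced were 0.375 times those of the wild type (0.310 to 0.454, Mantel-Haenszel over 280 introns read in both). Within the 6 shared sequencing cells the difference was negative in 6 of 6 and ran from -26.2 to -13.9 points. Median aligned lengths of reads at long introns overlapped in those cells, at 983 to 1210 nt in the wild type and 942 to 1055.5 nt in prp2-1. The median span of all nuclear reads was longer in the wild type, at 871 to 958 nt against 748 to 811 nt. By state, median aligned lengths were 999 against 833 nt for spliced and 1136 against 1062 nt for unspliced reads. The part of read length in the difference was not tested. The short introns had an odds ratio of 0.367, and the ratio of long to short was 1.02 (0.826 to 1.26), so no difference between the classes was detectable and one of up to 1.26 times lies within the interval.

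Single introns were compared by Fisher's exact test (two-sided) where both libraries had at least 10 reads, with Benjamini-Hochberg adjustment over all introns tested. Between prp2-1 and the wild type, 13.2% of the 68 introns tested were called, and 0 of the 12 long ones were, with 3 of them at an unadjusted p under 0.05. Of the 27 short coding introns tested, 0 were called as well, so the calls lay outside both classes. In 10 of the 12 long introns the share was lower in prp2-1. Their median difference was -19.0 points, against -15.6 over all introns tested and -13.9 over the short ones. With a minimum of 5 reads in both libraries 1.72% of 291 introns were called, and 2 of the 49 long ones. Of those 49, 40 were lower and 7 higher in prp2-1, with a median of -22.2 points.

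The 3 long introns with an unadjusted p under 0.05 in that exact test lie in cut6, gua1 and SPAC29A4.02c. For cut6, acetyl-CoA carboxylase, the first enzyme of fatty acid synthesis, intron 1 (622 nt, starting 31 nt into the coding sequence) was spliced in 41 of 44, 8 of 9 and 10 of 11 reads of the wild-type libraries and in 4 of 11 of prp2-1. The last share stood below the other 3, and Fisher's exact test against the 37 °C wild type gave an adjusted p of 0.108. For gua1, IMP dehydrogenase of GTP synthesis, intron 1 (332 nt) was spliced in 19 of 20, 16 of 22, 12 of 16 and 7 of 24 reads. Here too prp2-1 was lowest (exact test, adjusted p 0.0604). For SPAC29A4.02c, annotated as the gamma subunit of elongation factor EF-1, intron 1 (293 nt) was spliced in 14 of 17, 9 of 12, 12 of 14 and 11 of 26 reads. The adjusted p of the exact test was 0.101.

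For tbp1, the TATA-binding protein, intron 1 was spliced in 9 of 19, 3 of 11 and 3 of 9 wild-type reads and in 0 of 38 prp2-1 reads, which allows a share of up to 7.89%. The prp2-1 library held more reads of this intron than any other library, and the wild type at 37 °C was under the 10 reads a test needed. For nmd5, a karyopherin of nuclear transport, intron 1 (337 nt) was spliced in 10 of 13, 7 of 16, 5 of 18 and 1 of 16 reads. Its share was lowest in prp2-1 and highest in replicate 1 at 30 °C. SPAP8A3.07c, annotated as phospho-2-dehydro-3-deoxyheptonate aldolase, the entry enzyme of aromatic amino acid synthesis, was spliced in 17 of 21, 12 of 19, 18 of 26 and 10 of 16 reads. Its 4 shares lay between 62.5% and 81.0%, so the prp2-1 value was close to those of the wild type.

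The other most-read members were rad24, a 14-3-3 protein of the DNA damage checkpoint, pmp3, a small membrane proteolipid, rho1, a GTPase that activates cell wall glucan synthase, and btf3, the beta subunit of the nascent polypeptide-associated complex. rad24 intron 1 (407 nt) was spliced in 42 of 51, 12 of 17, 8 of 12 and 8 of 18 reads. pmp3 intron 1 (370 nt) was spliced in 20 of 23, 7 of 12, 5 of 9 and 11 of 35 reads. Both had their lowest share in prp2-1 and their highest in replicate 1. rho1 intron 1 (331 nt) was spliced in 20 of 26, 9 of 11, 7 of 12 and 5 of 15 reads, and prp2-1 was again the lowest. Intervals of single introns are wide at these depths, as the plot of the most-read introns shows.

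**Figure D3:**
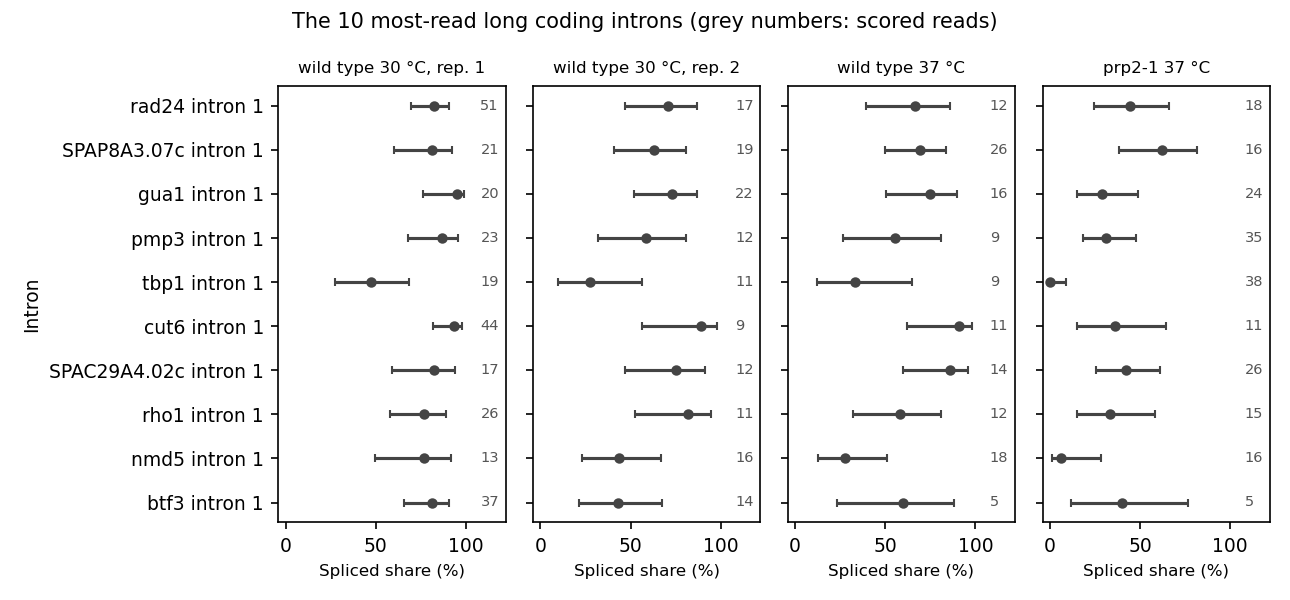
Spliced share (percent) of the 10 long coding introns with the most scored reads, 1 panel per library, with 95% Wilson intervals and the number of scored reads in grey. In prp2-1 tbp1 lies at 0 of 38 reads and nmd5 at 1 of 16, and SPAP8A3.07c stays at 10 of 16.

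The comparison of the 30 °C libraries shows how far wild-type samples differ. Replicate 2 was 22.1 points below replicate 1 (-25.6 to -18.5), with an odds ratio of 0.373 (0.311 to 0.449, 309 introns). Without the reads of cell 1 of replicate 2, the share of replicate 2 was 69.2% (63.9 to 74.0) and the difference was -4.31 points (-9.95 to 0.938). The distance between replicates was thus as large as that between prp2-1 and the 37 °C wild type, and it rested on that cell. The short introns differed less between the replicates, with an odds ratio of 0.556. The ratio of long to short was 0.671 (0.549 to 0.821), and without cell 1 of replicate 2 it was 1.14 (0.816 to 1.59), on the other side of 1.

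Between the replicates, 35.5% of the 107 introns tested were called, and 2 of the 14 long ones and 2 of the 36 short ones were. For cwh43, annotated in glycosylceramide biosynthesis, intron 1 (184 nt) was spliced in 11 of 13 reads of replicate 1 and 2 of 12 of replicate 2 (Fisher's exact test, adjusted p 0.00641). It was spliced in 3 of 5 and 2 of 8 reads of the 37 °C libraries. For btf3, intron 1 (158 nt) was spliced in 30 of 37 reads of replicate 1 and 6 of 14 of replicate 2 (exact test, adjusted p 0.0435). Over all 14 long introns, 13 were lower in replicate 2. Their median difference was -20.5 points, against -23.7 over all introns tested and -8.64 over the short ones. Without cell 1 of replicate 2, 0 long introns had the reads for a test. With a minimum of 5 reads 11.6% of 363 introns were called, and 3 of the 53 long ones.

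The 37 °C wild type was compared with each 30 °C library. It was 22.3 points below replicate 1 (-25.6 to -18.9), which has the same strain label, and 0.192 points below replicate 2 (-4.17 to 3.79). The odds ratios were 0.401 and 1.02. The ratio of long to short odds ratios came to 0.595 (0.487 to 0.728) with replicate 1 and to 0.896 (0.728 to 1.10) with replicate 2. Without cell 1 of replicate 2 the second difference was -18.0 points (-23.5 to -12.0) and the second ratio 0.450 (0.316 to 0.641). Fisher's exact test called 4.17% of the 96 introns tested against replicate 1 and 3.45% of the 58 tested against replicate 2, and 0 of the 15 and 0 of the 7 long introns among them (3 and 0 at an unadjusted p under 0.05). Of the short introns tested, 0 of 42 and 2 of 26 were called. Temperature and library cannot be told apart here. With a minimum of 5 reads, 1.58% of 379 introns were called against replicate 1, and 1 of the 47 long ones.

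Against the short introns, the long ones had a higher share in replicate 1 by 12.9 points (10.6 to 15.1) and in replicate 2 by 4.61 points (1.41 to 7.79). At 37 °C the differences were 0.143 points (-2.82 to 3.10) in the wild type and 0.174 (-2.61 to 3.06) in prp2-1. Over the 4 libraries the mean was 4.45 points, higher in 4 of 4, and the exact two-sided sign-flip permutation test gave p = 0.13, the smallest that 4 libraries allow. Without replicate 1 at 30 °C the mean was 1.64 points. By cell, the long introns were higher in 6 of 6 cells of replicate 1, 2 of 3 of replicate 2, and 3 of 6 of each 37 °C library. In replicate 2 the exception was cell 1, at -0.542 points, beside 24.4 and 15.3 in the other 2, and without it the replicate's difference was 18.7 points (13.0 to 24.1). At long introns spliced reads had median aligned lengths of 434, 631, 999 and 833 nt against 711, 795, 1136 and 1062 nt for unspliced ones. Aligned length leaves out the removed intron, so spliced reads are shorter by this measure in part by definition. By span on the chromosome spliced reads were longer, at medians of 761, 954, 1324 and 1162.5 nt against 724, 797, 1146 and 1069.5 nt.

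Within the set, the share went with intron length at 30 °C. Introns of 150 to under 200 nt, 200 to under 300 nt and 300 nt or more numbered 212, 170 and 106. Their shares were 68.1%, 73.3% and 80.5% in replicate 1 and 47.5%, 51.02% and 57.1% in replicate 2. The longest class stood 12.4 points (7.47 to 17.2) and 9.62 points (2.32 to 16.8) above the shortest class of members, and without cell 1 of replicate 2 the second value was 21.9 points (9.38 to 32.9). In the 37 °C wild type the shares were 51.1%, 51.6% and 50.9%, and in prp2-1 30.5%, 30.2% and 30.2%. There the difference between longest and shortest class was -0.174 points (-7.02 to 6.68) and -0.328 points (-6.70 to 6.04). A read unspliced at an intron has to run through all of it. The median span was 251 and 435 nt at 30 °C and 902 and 770 nt at 37 °C. The part of read length in these shares was not tested. With the 3′ end over 400 nt past the intron, the classes gave 72.5%, 68.9% and 83.3% in replicate 1. Replicate 2 gave 57.3%, 60.9% and 69.9% there. At the limit of the set, introns of 150 to 152 nt had a pooled share of 46.4% (91 of 196 reads) and introns of 147 to 149 nt one of 51.1% (45 of 88).

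The distance from the 3′ splice site to the 3′ end of the read shows how far the polymerase had gone. In the 37 °C wild type the long introns stood at 33.3%, 23.7% and 26.1% with the 3′ end 10 to 50, over 50 to 100 and over 100 to 200 nt downstream. They reached 37.2% up to 400 nt, 54.9% up to 800 nt and 61.1% beyond 800 nt. Replicate 2 at 30 °C went through the same bins from 29.6% to 69.7%, and prp2-1 went from 17.1% to 34.8%. Replicate 1 at 30 °C stood at 63.9% in the nearest bin, peaked at 78.4% and gave 69.6% in the farthest. The short introns changed less with distance in the 37 °C wild type, from 46.1% to 55.8%.

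**Figure D4:**
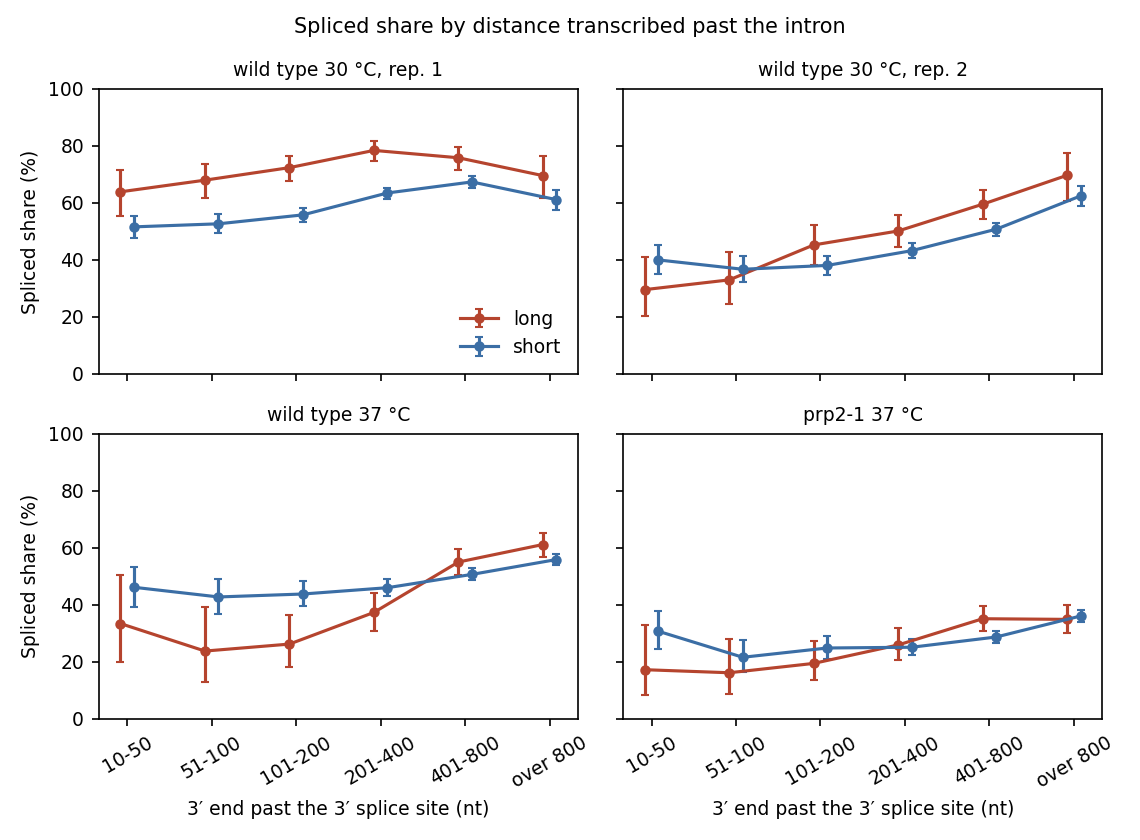
Spliced share (percent) of long and short coding introns by the distance from the 3′ splice site to the 3′ end of the read (nt), 1 panel per library, with 95% Wilson intervals. In the 37 °C wild type the long introns lie below the short ones up to 400 nt and above them beyond it.

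Distances of 10 to 200 nt and over 400 nt were then set against each other, with the classes picked after the values above were seen. In the 37 °C wild type the long introns stood 16.9 points below the short ones near the intron (-24.0 to -8.85) and 4.69 points above them far from it (1.23 to 8.09). In prp2-1 the differences were -7.17 points (-12.7 to -0.789) and 2.42 points (-1.18 to 6.13). In replicate 2 they were 0.683 points (-4.76 to 6.31) and 7.74 (2.88 to 12.4), and in replicate 1 they were 15.5 (11.7 to 19.1) and 8.45 (4.26 to 12.4). The odds ratio of long to short was 2.56 times as large far as near in the 37 °C wild type (1.72 to 3.81) and 1.70 times in prp2-1 (1.13 to 2.58). It was 1.34 times in replicate 2 (0.981 to 1.82) and 0.773 times in replicate 1 (0.591 to 1.01). Without its cell 1, replicate 2 gave 0.789 (0.340 to 1.83).

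The difference between prp2-1 and the 37 °C wild type at long introns was -8.90 points (-17.6 to -0.410) at 10 to 200 nt, -11.4 (-20.05 to -2.67) from there to 400 nt and -23.3 (-27.7 to -18.6) beyond 400 nt. The short introns gave -18.6 (-23.0 to -14.2), -20.9 (-25.0 to -16.7) and -21.0 points (-23.0 to -18.9) in the same classes. These differences start from unlike shares in the 37 °C wild type. They were 27.0%, 37.2% and 58.2% at long introns and 43.9%, 45.9% and 53.5% at short ones. Whether the change in prp2-1 depends on distance differently in the 2 classes was not tested.

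Reads that crossed a long and a short intron of the same gene showed both in the same state in 88.8%, 88.2%, 84.1% and 81.6% of 878, 635, 924 and 842 pairs. In these pairs the long intron was spliced in 75.2%, 53.1%, 52.8% and 31.9% and the short one in 73.3%, 56.4%, 51.4% and 31.1%. Such shares alone give some agreement, and the excess over it was not tested. Pairs can share a read or a gene and are not independent. Of the pairs with only 1 intron spliced, the short intron was the spliced one in 41 of 98 (41.8%, exact 95% interval 31.9 to 52.2), 48 of 75 (64.0%, 52.1 to 74.8), 67 of 147 (45.6%) and 74 of 155 (47.7%). Replicate 2 at 30 °C was the only library whose interval lay clear of 50%. Without its cell 1 the value was 61.5% of 13 pairs (31.6 to 86.1), and with a length limit of 200 nt for the long class it was 57.4% of 47 (42.2 to 71.7), and both intervals hold 50%. In replicate 2 the short intron was spliced alone in 33 of 45 pairs in which it lay upstream of the long one (73.3%), and in 15 of 30 in which it lay downstream.

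Single introns spread over the whole range. Among the 191 with at least 10 reads over the 4 libraries the median share was 53.8%, 13 lay under 25% and 23 over 75%. The lowest were intron 1 of sac3, a nuclear export factor, with 0 of 14 reads spliced, intron 1 of lmb1, a membrane protein, with 0 of 12, and intron 1 of srk1, a MAPK-activated kinase, with 0 of 10. Their scored reads by library were 2, 1, 5 and 6 for sac3, 2, 5, 5 and 0 for lmb1, and 5, 0, 5 and 0 for srk1. The highest were hcs1 intron 2 (HMG-CoA synthase) with 13 of 13, ade2 intron 2 (adenylosuccinate synthetase of purine synthesis) with 31 of 33 and ckb1 intron 2 (regulatory subunit of casein kinase 2) with 15 of 16. The scored reads by library were 6, 5, 1 and 1 for hcs1, 14, 1, 11 and 7 for ade2, and 6, 3, 6 and 1 for ckb1. These shares pool libraries with unlike shares, prp2-1 among them, so an intron's place also depends on which libraries read it. These are descriptions of extremes, given with no test. The longest members read were elo1 intron 1 (837 nt, fatty acid elongase), with 16 of 23 reads spliced, cit1 intron 1 (784 nt, citrate synthase), with 3 of 12, and prr1 intron 2 (756 nt, a stress-responsive transcription factor), with 4 of 11.

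The spliced share was also taken by 5′ splice site. In the 37 °C wild type the introns that begin with GTAAGT stood at 57.1% (327 of 573 reads) and those with sites other than GTAAGT and GTATGT at 43.0% (175 of 407), a difference of -14.1 points (-20.3 to -7.73). The same difference was -0.993 points (-6.05 to 3.95) in replicate 1, 1.35 (-5.45 to 8.12) in replicate 2 and -2.83 (-8.75 to 3.34) in prp2-1. Introns that begin with GTATGT differed from those with GTAAGT by 5.95 points in replicate 1 (95% interval 1.09 to 10.6). Replicate 2 gave -1.79 points (-9.08 to 5.51), wild type at 37 °C gave -5.83 (-12.6 to 0.956) and prp2-1 gave 4.63 (-1.56 to 10.9). With reads of at least 500 nt only, the replicate 1 value was 4.25 (-0.834 to 9.12), whose interval holds 0. The contrasts between 5′ sites were not planned, and these intervals are not adjusted for their number.

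The 3′ end of unspliced reads was compared with that of spliced ones beyond the gene. It lay over 100 nt beyond the end of the gene in 5.63%, 2.74%, 9.92% and 4.14% of reads unspliced at a long intron and in 0.902%, 3.45%, 4.05% and 3.70% of spliced ones. The difference was 4.72 points (2.87 to 7.19) in replicate 1 and 5.87 (3.13 to 8.73) in the 37 °C wild type, and within counting error in the other 2 libraries. In replicate 2 and prp2-1 only 15 and 36 unspliced and 20 and 14 spliced reads ended there. The short introns gave 2.73 points (1.96 to 3.57), 1.38 (0.309 to 2.44), 6.64 (5.40 to 7.91) and 3.11 (1.86 to 4.26), so the difference was not particular to long introns.

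Of the long introns, 5 hold an annotated small nucleolar RNA, which guides the modification or processing of ribosomal RNA and is trimmed from the excised intron, while 0 of the short introns do. The hosts are rlp7 (snoR39a), nog2 (snR191), SPAC29A4.02c (snoR38), ipa1 (SPNCRNA.498) and gua1 (snoR54). Pooled, they were spliced in 85.7%, 73.8%, 73.2% and 34.4% of reads, against 73.2%, 50.6%, 50.5% and 30.1% for the other members. The differences were 12.6 points (0.0136 to 20.1), 23.3 (8.08 to 34.5), 22.7 (7.30 to 34.1) and 4.31 (-6.48 to 16.8). gua1 and SPAC29A4.02c gave most of the reads, so the pooled values speak mainly of those hosts. Without its cell 1, replicate 2 had 9 host reads and a difference of 8.85 points (-24.0 to 25.6). This split was made after values had been seen.

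Some reads looked like the excised introns themselves. They began within 3 nt of the first intron base, held no gap and ended in the last 60 nt of the intron. Replicate 1 held 92 of them at 64 long introns, replicate 2 held 17 at 14, and the 37 °C libraries held 3 each. Short introns gave 2, 1, 0 and 0, beside a median length of 55 nt for those introns. Reads with a span under 150 nt made up 20.1%, 3.31%, 10.9% and 13.96% of nuclear reads, so short molecules were unequally held by the libraries. The most came from rlp7, a snoRNA host, with 14 in replicate 1. In replicate 1 their 3′ ends lay a median of 14 nt before the intron's last base, and in replicate 2 a median of 5 nt before it. The replicate 1 ends were spread, with 16 within 3 nt of that base, 53 at 4 to 20 nt and 23 at over 20 nt. The median place of the branch word was 15 nt. Whether these ends lie at the branch word of their intron was not tested.

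**Figure D5:**
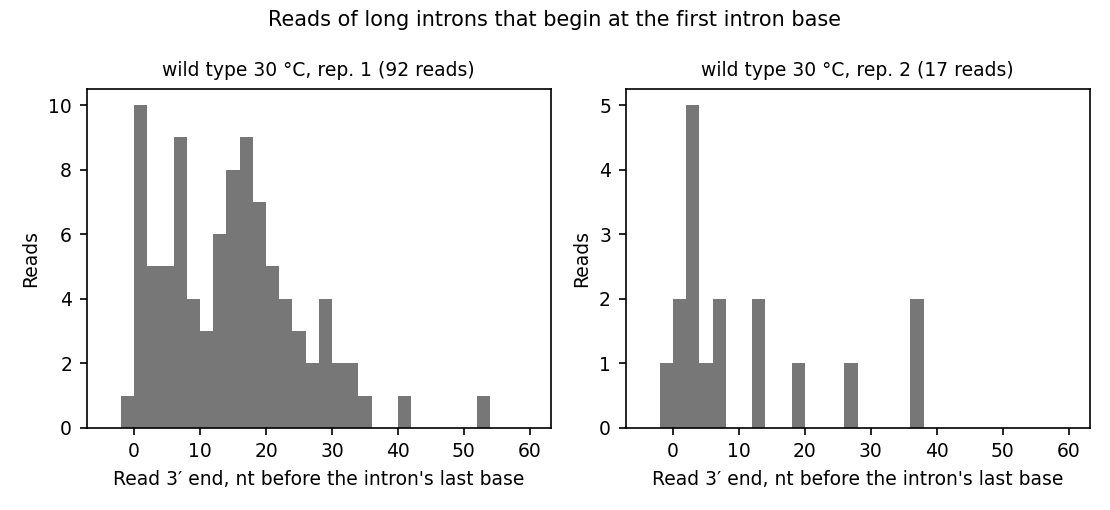
Number of reads by the distance of their 3′ end from the last base of the intron (nt, in bins of 2), for reads that begin at the first base of a long coding intron, in the 2 libraries of wild type at 30 °C. The 92 reads of replicate 1 spread around a median of 14 nt, and the 17 reads of replicate 2 lie at a median of 5 nt.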

How the data were processed

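Nascent RNA of 4 S. pombe libraries was analysed as deposited, 1 line per aligned read with strand and blocks and no normalisation. The score column of the deposited files is 40 in every line and was not used. cutadapt 1.8 is named in the submitters' processing notes; the aligner and the genome build are not given in the sources used here. Reads were read against RefSeq ASM294v3 (1-based), and 87.7% to 93.6% of gaps matched an annotated intron exactly. The transcript with the most exons stood for each gene, with introns of at least 20 nt.

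Gaps of 20 nt or more counted, and an unspliced read had at least 90% of the intron in aligned blocks. Wilson, Newcombe and Clopper-Pearson (exact) intervals are at 95%, and odds ratios are Mantel-Haenszel estimates. Distance was measured from the 3′ splice site to the read's 3′ end. Calls need an adjusted p under 0.05. The introns named were the 10 with the most scored reads, each one called, the 3 lowest and 3 highest shares among those with at least 10 reads, and the 3 longest with a read; others are said to be picked after their values were seen. Of the named introns, those of rlp7, nog2 and ipa1 were picked after values were seen, as snoRNA hosts.

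The members and lists were chosen with earlier results of these data known. Nothing says that the 30 °C libraries came from parallel cultures, and their strains differ. Scripts (Python 3.11.15, SciPy 1.17.1, matplotlib 3.10.9) were tested on simulated data. Alternatives changed the reach, the tolerance, repeated reads, read span, the length limit, introns and sequencing cells; alternatives with cells or distance classes were added after the data were seen. The 37 °C files share 3769 read names with 0 identical alignments.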

Additional observations from a re-analysis of the deposited data

Results flagged for a closer look

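The difference between long and short coding introns was not the same in all libraries. The odds ratio of 30 °C replicate 2 to replicate 1 at long introns was 0.671 times that at short introns (95% interval 0.549 to 0.821), and that of the 37 °C wild type to replicate 1 was 0.595 times (0.487 to 0.728). Both were picked out because the interval of the ratio, which tests the difference between the classes, lay clear of 1. Both comparisons share replicate 1, whose reads were the shortest (median span 251 nt against 435 nt in replicate 2 and 902 nt in the 37 °C wild type). The part of read length was not tested. Without cell 1 of replicate 2 the first ratio was 1.14 (0.816 to 1.59).

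The contrast of long with short introns also differed with the place of the read's 3′ end. From 10 to 200 nt to over 400 nt past the intron, the long-to-short odds ratio was multiplied by 2.56 in the 37 °C wild type and by 1.70 in prp2-1, with intervals of 1.72 to 3.81 and 1.13 to 2.58. Under the alternatives run on the reads and introns of these libraries both intervals stayed above 1. The distance classes were picked after values were seen.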

How the results depend on the processing

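Of 552 values recomputed under alternatives, 526 kept their direction and side of the threshold or stayed within their error. Not every alternative could move every value. Cells left out of a 30 °C library touch no value drawn from the 37 °C libraries alone. Long-intron crossings in the 30 °C libraries held no repeated read name, so that setting left their values as they were. Such unchanged values are among the 526, which therefore overstates how far the results were tried. Leaving out cell 1 of 30 °C replicate 2 moved its share to 69.2%, its difference from replicate 1 to -4.31 points and the difference of the 37 °C wild type from it to -18.0 points. It also turned the long-to-short ratio of odds ratios between the replicates to 1.14 and left 0 long introns called between them. Calls between the replicates fell from 2 to 1 with identical reads counted once, and to 1 without cells 2 and 4 of replicate 1; with a minimum of 5 reads they rose to 3 of 53 (cwh43 intron 1, mug64 intron 1 and vma8 intron 2), beside 42 of 363 over all introns. btf3 lost its call in all 3 settings (Fisher's exact test, adjusted p 0.0561, 0.0555 and 0.0975). It kept the call with reads ending past the gene left out (Fisher's exact test, adjusted p 0.0356). With that minimum 2 of 49 long introns were called between prp2-1 and the 37 °C wild type, aha1 intron 1 (1 of 13 against 7 of 7) and pex7 intron 1 (1 of 14 against 8 of 9), and 1 of 47 between the 37 °C wild type and replicate 1, ubc4 intron 2 (1 of 9 against 18 of 22). Over all introns the counts were 5 of 291 and 6 of 379. Introns called at this minimum were named after their values were seen. Over all introns, calls between prp2-1 and the 37 °C wild type went from 9 of 68 to 5 with that minimum and to 0 of 45 with read names found more than once left out. With a limit of 200 nt the share of replicate 1 was 76.7%. Leaving out 1 library at a time, the 30 °C share ran from 51.4% to 73.5% and the mean long-minus-short difference from 1.64 to 5.89 points. The snoRNA host difference of replicate 1 reached 0 within its interval under 5 of the alternatives. The cause was not tested. No paired analysis was possible because by replicate number the groups share only number 1. By sequencing cell, the 37 °C libraries were compared within the 6 cells they share (-26.2 to -13.9 points). Depth limits single introns: 12 long ones could be tested between prp2-1 and the wild type.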

Other observations

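Reads also left the long introns unfinished or joined them at other sites. Of reads that entered a long intron by at least 10 nt, 21.7%, 19.4%, 6.99% and 14.6% ended inside it, against 3.90%, 3.73%, 1.83% and 3.50% for short introns, which have less length to end in. Counted intron by intron, gaps from an annotated 5′ site to another 3′ site were found 14, 7, 4 and 6 times. Gaps from another 5′ site to an annotated 3′ site were found 13, 7, 6 and 6 times. The same gap can count at neighbouring introns. The most frequent of the other junctions ran from the 5′ site of spd2 intron 1 to within 2 nt of the 3′ end of intron 2. It was found in 4, 3, 1 and 0 reads. Annotated intron 1 ends at base 2830798 and intron 2 starts at base 2830807, so the exon between them is very short. Whether this exon was skipped or misaligned was not tested. A second, at ypt1 intron 1, a Rab GTPase of secretion, used a 5′ site inside the intron and removed 46 nt in 1, 1, 0 and 2 reads. These genes were picked after their values were seen.

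The snoRNA-holding intron of nog2, a GTPase of ribosome export, had 2044, 737, 52 and 53 reads lying wholly inside it, and 4, 2, 6 and 12 reads that crossed it. The origin of the reads inside it was not tested.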
